A study of Rattus norvegicus with 9 samples.

Results

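The genes described here are 9 genes of insulin and insulin-like growth factor (IGF) signalling in rat pancreatic islets: the ligand genes Igf1 and Igf2, the receptor genes Insr and Igf1r, the receptor substrate genes Irs1 and Irs2, the kinase genes Akt1 and Akt2, and the transcription factor gene Foxo1. They were chosen by name as the receptors, ligands and downstream members of the pathway. No measured value enters the choice of genes by the rule, but the genes were listed with earlier results of these data known. All 9 of the 9 were measured, among 14217 genes on the array, and 23 of 31042 tested probe sets belonged to them. A gene with several probe sets is represented by its brightest one, judged by the 9-array mean, and its other probe sets are reported beside it.

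Insulin, IGF1 and IGF2 are related peptide hormones that bind 2 related tyrosine kinase receptors, the insulin receptor and the IGF1 receptor. The active receptor phosphorylates the adaptor proteins IRS1 and IRS2, which recruit the lipid kinase PI3K, and its product brings the kinases AKT1 and AKT2 to the membrane. AKT phosphorylates FOXO1 and so keeps this transcription factor out of the nucleus, and it also feeds the mTOR branch that controls protein synthesis. In the beta cell the pathway is known for its role in growth, survival and secretion, and IRS2 is the substrate on which beta cell mass depends in mice.

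The rats were of the Wistar strain, and each islet RNA sample was hybridised to a Rat Genome 230 2.0 array made by Affymetrix. Lean rats on standard chow gave 4 samples (chow), and obese rats kept for 30 days on a high-caloric cafeteria diet gave 5 (cafeteria). The diet day was 30 for all 9 samples, chow included. Strain and tissue were shared by both groups, and the labels used here name neither the age nor the sex of the animals, nor whether islets of several rats were pooled. The islets were freed by collagenase digestion, with no sorting step named, so each value is a mixture over all cells of the preparation, in which fewer cells of a type and less RNA per cell cannot be told apart. Since the labels do not say that each sample came from an animal of its own, the p-values speak of the variation among these 9 samples, which may in part be technical.

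All 7 measured beta cell markers lay above the array medians (5.28 to 5.32), and their mean level differed between the groups by -0.044 log2. RNA quality varied between arrays within both groups. It was taken as the 3-prime minus 5-prime difference of the actin and Gapdh control probe sets, which grows as RNA shortens. It was 1.80 on chow replicate 1, 1.74 on cafeteria replicate 3 and 1.73 on cafeteria replicate 5, against 1.21 to 1.53 on the other 6 arrays, and the groups differed in it by -0.052 (exact permutation p = 0.746). Levels of other marker lists are the mean log2 distance of a list from its 9-array mean. Macrophage markers were lower under the cafeteria diet in 12 of 14 measured genes, with levels of 0.0073 to 0.26 in chow and -0.29 to 0.13 in cafeteria samples (exact permutation p = 0.0873). Lymphoid markers were lower in 13 of 13 genes, with -0.16 to 1.08 in chow and -0.25 to -0.17 in cafeteria samples (exact p = 0.00794, the smallest the test can give), and chow replicate 3 held the 1.08. Only 2 of these 13 lymphoid genes and 7 of the 14 macrophage genes lay above the array medians. Acinar markers were higher in 15 of 16 genes (-0.77 to 0.19 and -1.07 to 0.73; exact p = 0.222), endothelial markers lower in 9 of 11 (-0.076 to 0.15 and -0.21 to 0.11; exact p = 0.206), other islet cell markers lower in 10 of 10 (0.047 to 0.33 and -0.41 to 0.25; exact p = 0.103) and immediate early genes lower in 13 of 14 (-0.34 to 1.24 and -0.58 to 0.45; exact p = 0.190). Ductal markers were lower in 7 of 10 genes (exact permutation p = 0.397) and adipocyte markers lower in 4 of 7 (exact permutation p = 0.667). Chow replicate 1 held the highest ductal (0.80) and immediate early (1.24) levels. Without it the groups differed in these levels by 0.0037 and -0.21, against -0.22 and -0.53 with all 9 arrays. Stellate markers were higher in 7 of 13 genes, but their mean level differed by -0.056 (exact permutation p = 0.786).

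The diet comparison asks whether the islet's machinery for sensing insulin and IGFs was set differently in obese rats. No member passed the test: 0 of 9 genes reached an adjusted p of 0.05 in limma with Benjamini-Hochberg adjustment over all probe sets, where 0% of all 14217 genes did, and the adjusted p of the members lay between 0.844 and 0.975. At an unadjusted p under 0.05 there were 0 of 9 members, against 6.7% of all genes (3.42% higher and 3.28% lower in cafeteria samples). The groups overlapped in all 9 members, whereas they did not overlap in 2.17% of all genes (1.33% higher and 0.837% lower). The differences, cafeteria minus chow on the log2 scale, ran from -0.33 for Akt2 to 0.13 for Igf1r with a median of -0.087, beside a median of 0.0025 over all genes. Of the 9, 7 had lower and 2 had higher means under the cafeteria diet, where 49.2% of all genes had lower and 50.8% higher means.

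**Figure D1:**
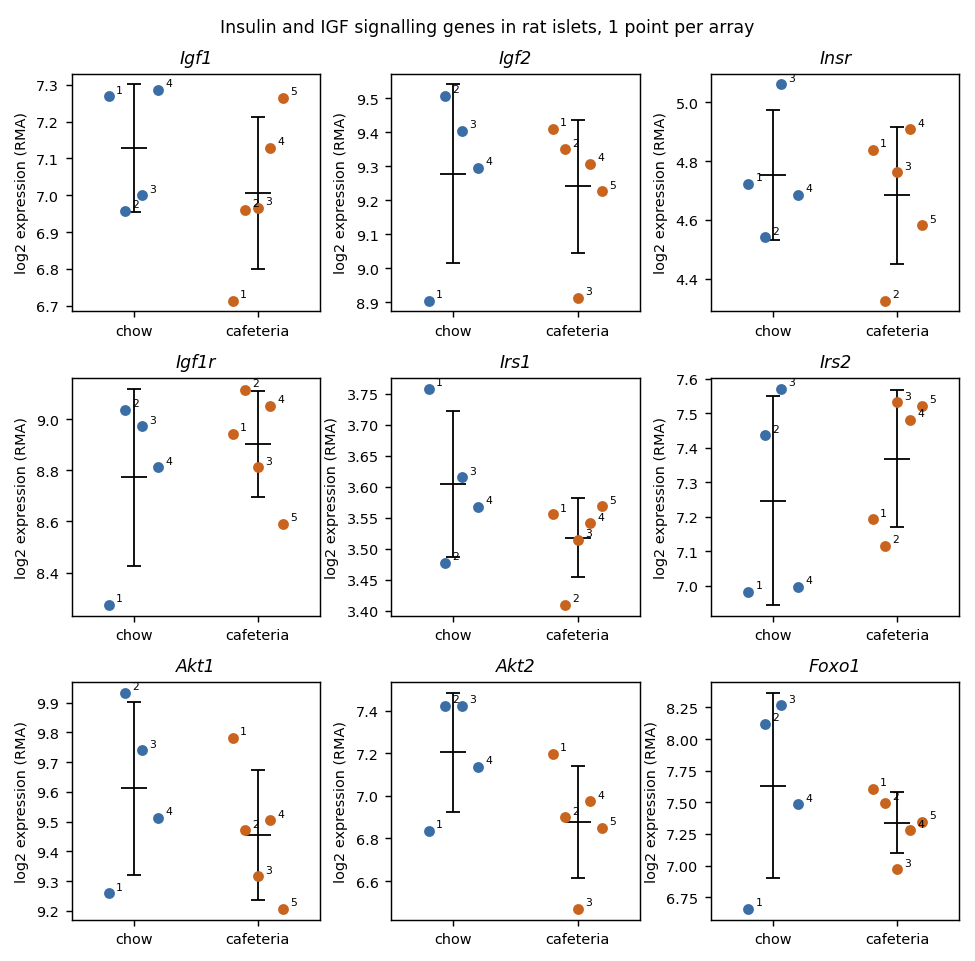
Log2 expression (vertical axis) of the 9 genes on each array, chow in blue and cafeteria in orange, with the replicate number beside each point. Bars give the mean and the SD (n = 4 and 5), and in every panel the points of the groups overlap.

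Igf1 encodes the growth factor that gives the IGF1 receptor its name and mediates much of the action of growth hormone. Its log2 level was 7.27, 6.96, 7.00 and 7.29 in chow replicates 1 to 4 and 6.71, 6.96, 6.97, 7.13 and 7.26 in cafeteria replicates 1 to 5. Cafeteria replicate 1 was the lowest array, and cafeteria replicate 5 stood level with the highest chow arrays. The chow mean was 7.13 ± 0.17 (SD, n = 4) and the cafeteria mean 7.01 ± 0.21 (SD, n = 5). The difference was -0.12 (SE 0.12, 95% interval -0.39 to 0.14; adjusted p = 0.882 by limma). All 3 probe sets of Igf1 had lower means in the cafeteria group, the other two by -0.13 (SE 0.12) and -0.17 (SE 0.12), and cafeteria replicate 1 was the lowest array in each of them. The same array had the lowest macrophage (-0.29), stellate (-0.45), endothelial (-0.21) and immediate early (-0.58) levels of all. The highest beta cell level (0.069) and the smallest 3-prime minus 5-prime difference (1.21) were also on this array. Without it Igf1 differed by -0.048, without cafeteria replicate 5 by -0.19, without chow replicate 4 by -0.068, and with the macrophage level as a covariate by 0.044. What part any of these measures had in the Igf1 difference was not tested.

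Igf2 encodes a fetal growth factor that binds the IGF1 receptor and the insulin receptor. Its brightest probe set read 8.91, 9.51, 9.40 and 9.30 in chow and 9.41, 9.35, 8.91, 9.31 and 9.23 in cafeteria samples. The low values belonged to 1 array of each group, chow replicate 1 and cafeteria replicate 3, and the other 7 arrays lay between 9.23 and 9.51. The difference was -0.037 (SE 0.14, 95% interval -0.34 to 0.26; adjusted p = 0.975 by limma). The 3 other probe sets were dim: they averaged 4.90, 4.53 and 4.47, under every array's median, and their differences had the opposite sign (0.15, 0.13 and 0.14). In the second of these the groups did not overlap, with 4.39 to 4.49 in chow and 4.50 to 4.75 in cafeteria samples (exact permutation p = 0.0159; adjusted p = 0.844 by limma).

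Insr, the insulin receptor gene, was dim on both of its probe sets, at averages of 4.71 and 4.23, where the array's background can compress differences. The brighter one read 4.72, 4.54, 5.06 and 4.68 in chow and 4.84, 4.33, 4.76, 4.91 and 4.58 in cafeteria samples. The highest and lowest arrays, chow replicate 3 and cafeteria replicate 2, came from different groups, but the rest were interleaved. The difference was -0.069 (SE 0.14, 95% interval -0.37 to 0.23; adjusted p = 0.950 by limma), and the dimmer probe set differed by 0.076 (SE 0.072).

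Igf1r, the IGF1 receptor gene, was bright on both of its probe sets (means of 8.85 and 8.66), and they disagreed in sign. The brighter read 8.27, 9.04, 8.97 and 8.81 in chow and 8.94, 9.11, 8.81, 9.05 and 8.59 in cafeteria samples, a difference of 0.13 (SE 0.16, 95% interval -0.23 to 0.48; adjusted p = 0.907 by limma). The other read 8.40, 8.75, 8.76 and 9.11 in chow and 8.87, 8.74, 7.97, 8.44 and 8.89 in cafeteria samples, a difference of -0.17 (SE 0.20). Chow replicate 1 was the lowest array on the first and cafeteria replicate 3 on the second. Without chow replicate 1 the brighter probe set differed by -0.038, so no direction is given for Igf1r.

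The receptor substrates differ in how well the array measured them. Irs1, the substrate best known from muscle and fat, lay near the floor of the array on its only probe set, with a mean of 3.56. Its values were 3.76, 3.48, 3.62 and 3.57 in chow and 3.56, 3.41, 3.51, 3.54 and 3.57 in cafeteria samples, which span 0.35 log2 in all. The difference was -0.087 (SE 0.075; adjusted p = 0.869 by limma), and -0.035 without chow replicate 1, its highest array. Irs2, the main substrate of the beta cell, read 6.98, 7.44, 7.57 and 7.00 in chow and 7.19, 7.12, 7.53, 7.48 and 7.52 in cafeteria samples. In both groups the Irs2 values formed a lower and a higher set, with 2 of 4 chow arrays and 3 of 5 cafeteria arrays at 7.44 or above and the rest at 7.19 or below. The difference was 0.12 (SE 0.15, 95% interval -0.20 to 0.45; adjusted p = 0.904 by limma). With 1 array left out it ran from 0.034 (without chow replicate 1) to 0.23 (without chow replicate 3). It was -0.072 without the 3 arrays of the poorest RNA, an alternative chosen after the values were seen, and 0.32 with the macrophage level as a covariate.

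Akt1 and Akt2 encode the kinases that carry the signal from PI3K, of which AKT2 is best known for glucose handling. Akt2 had the largest difference of the 9 genes. It read 6.84, 7.42, 7.42 and 7.14 in chow and 7.20, 6.90, 6.47, 6.97 and 6.85 in cafeteria samples, with a mean of 7.20 ± 0.28 (SD, n = 4) and 6.88 ± 0.26 (n = 5). All 5 cafeteria arrays lay below the chow mean, but only cafeteria replicate 3 lay below the lowest chow array, replicate 1. The difference was -0.33 (SE 0.16, 95% interval -0.68 to 0.023; unadjusted p = 0.0645 and adjusted p = 0.844 by limma; exact permutation p = 0.135). The next brighter probe sets of Akt2 differed by -0.32 (SE 0.24) and -0.28 (SE 0.25), and the dimmest, with a mean of 5.22, by 0.14 (SE 0.094). With RNA quality as a covariate Akt2 differed by -0.38, at an unadjusted p of 0.0062 and an adjusted p of 0.346 by limma, the lowest adjusted p of Akt2 under any setting. The highest was 0.995, without cafeteria replicate 3.

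Akt1 read 9.26, 9.93, 9.74 and 9.51 in chow and 9.78, 9.47, 9.32, 9.50 and 9.21 in cafeteria samples, a difference of -0.16 (SE 0.15, 95% interval -0.48 to 0.17; adjusted p = 0.878 by limma). Its second probe set read 7.00, 8.43, 8.38 and 7.81 in chow and 8.31, 7.93, 6.88, 7.88 and 6.74 in cafeteria samples. On both Akt1 probe sets the lowest 3 arrays were chow replicate 1 and cafeteria replicates 3 and 5, the arrays with the poorest RNA, and on the second they lay between 6.74 and 7.00 while the other 6 arrays lay between 7.81 and 8.43. The second probe set differed by -0.36 (SE 0.38) and the dimmest, with a mean of 4.35, by 0.21 (SE 0.087; adjusted p = 0.844 by limma). Akt1 differed by -0.048 without chow replicate 2, by -0.27 without chow replicate 1 and by -0.32 with the macrophage level as a covariate.

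Foxo1 encodes the transcription factor that AKT inactivates, and it was the most variable of the 9 genes, with an SD of 0.51 over the 9 arrays. It read 6.66, 8.12, 8.27 and 7.48 in chow and 7.61, 7.50, 6.97, 7.28 and 7.35 in cafeteria samples. The chow group held both the lowest array (replicate 1) and the highest 2 (replicates 2 and 3), so that the spread within chow (SD 0.73) was wider than within cafeteria (SD 0.24), and all cafeteria arrays lay inside the chow range. The difference was -0.29 (SE 0.29, 95% interval -0.93 to 0.34; adjusted p = 0.881 by limma). It was -0.62 without chow replicate 1 and -0.082 without chow replicate 3, or -0.13 without chow replicate 2. Its second probe set differed by -0.14 (SE 0.13) and the dimmest, with a mean of 4.05, by 0.12 (SE 0.098).

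**Figure D2:**
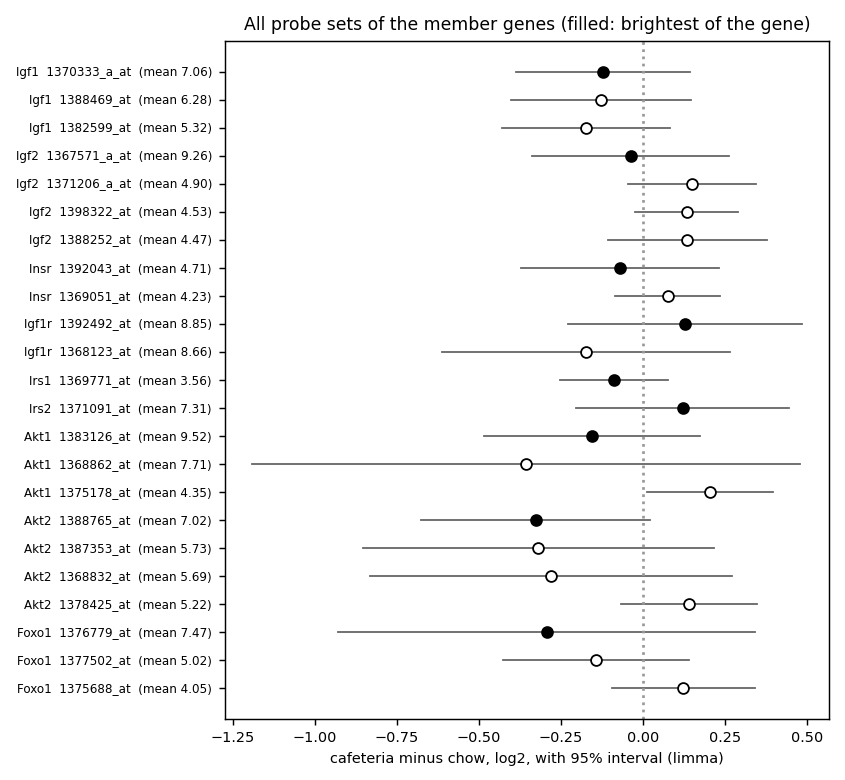
Difference between cafeteria and chow (horizontal axis, log2, with the 95% interval of limma) for all 23 probe sets of the 9 genes, the brightest of each gene filled. All but 1 of the intervals include 0, that of the dimmest Akt1 probe set being the exception, and the dim probe sets lie mostly to the right of the bright ones of the same gene.

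The sign of a difference went with brightness among the 23 member probe sets. Of the 23, 14 had lower and 9 higher values in cafeteria samples, where 47.2% of all probe sets were lower and 52.8% higher. Of the 13 whose mean lay above the array medians, 11 had lower values in cafeteria samples, and of the 10 dimmer ones 7 had higher values. Over all tested probe sets 52.0% of the brighter and 42.4% of the dimmer had lower values. The probe sets of a gene share its RNA and the arrays, so these counts describe the members and carry no test. An unadjusted p under 0.05 was reached by 1 of the 23, the dimmest Akt1 probe set, which was higher, beside 5.76% of all probe sets (3.3% higher and 2.47% lower). The groups did not overlap in 1 of the 23, the dim Igf2 probe set, beside 2% of all probe sets (1.34% higher and 0.66% lower). The 95% intervals of the 9 brightest probe sets ran at the most from 0.526-fold (Foxo1) to 1.40-fold (Igf1r) of the chow level.

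Several members varied together over the arrays in a way that crossed the diet groups. On the brightest probe sets, chow replicate 1 and cafeteria replicate 3 were among the lowest 3 arrays for Igf2, Igf1r, Akt1, Akt2 and Foxo1. Cafeteria replicate 5 joined them for Igf2, Igf1r, Akt1 and Akt2. For Igf1r the third place was a near tie, since cafeteria replicate 3 and chow replicate 4 both read 8.81. On the second Igf1r probe set, however, cafeteria replicate 5 read 8.89, below only chow replicate 4 at 9.11. Chow replicate 1 and cafeteria replicates 3 and 5 are the 3 arrays with the largest 3-prime minus 5-prime difference. Over the 9 arrays the correlation with that difference was r = -0.73 for Igf2 (exact permutation p = 0.0275, Spearman's rho -0.70, exact p = 0.0433), r = -0.68 for Akt1 (exact p = 0.0444, rho -0.75, exact p = 0.0255), r = -0.68 for Igf1r (exact p = 0.0412, rho -0.55, exact p = 0.133) and r = -0.57 for Akt2 (exact p = 0.108, rho -0.72, exact p = 0.0369). For Foxo1 it was r = -0.48 (exact p = 0.192, rho -0.52, exact p = 0.162). After adjustment over the 9 relations none passed, with adjusted p of 0.133 for r in Igf2, Akt1 and Igf1r and of 0.130 for rho in Igf2, Akt1 and Akt2. Without the 2 arrays farthest from the median quality, chow replicate 1 and cafeteria replicate 1, r was -0.61 for Igf2, -0.64 for Igf1r, -0.52 for Akt1, -0.56 for Akt2 and -0.30 for Foxo1. Igf1 (r = 0.50, rho 0.32), Irs1 (0.33, 0.23), Insr (-0.27, -0.28) and Irs2 (0.079, 0.033) had exact p of 0.169 to 0.948 for r and rho. Without those arrays r was -0.12, -0.031, -0.24 and 0.37 for these genes. As background, 3.80% of all genes had an r as low as that of Igf2 and 12.0% one as low as that of Akt2.

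**Figure D3:**
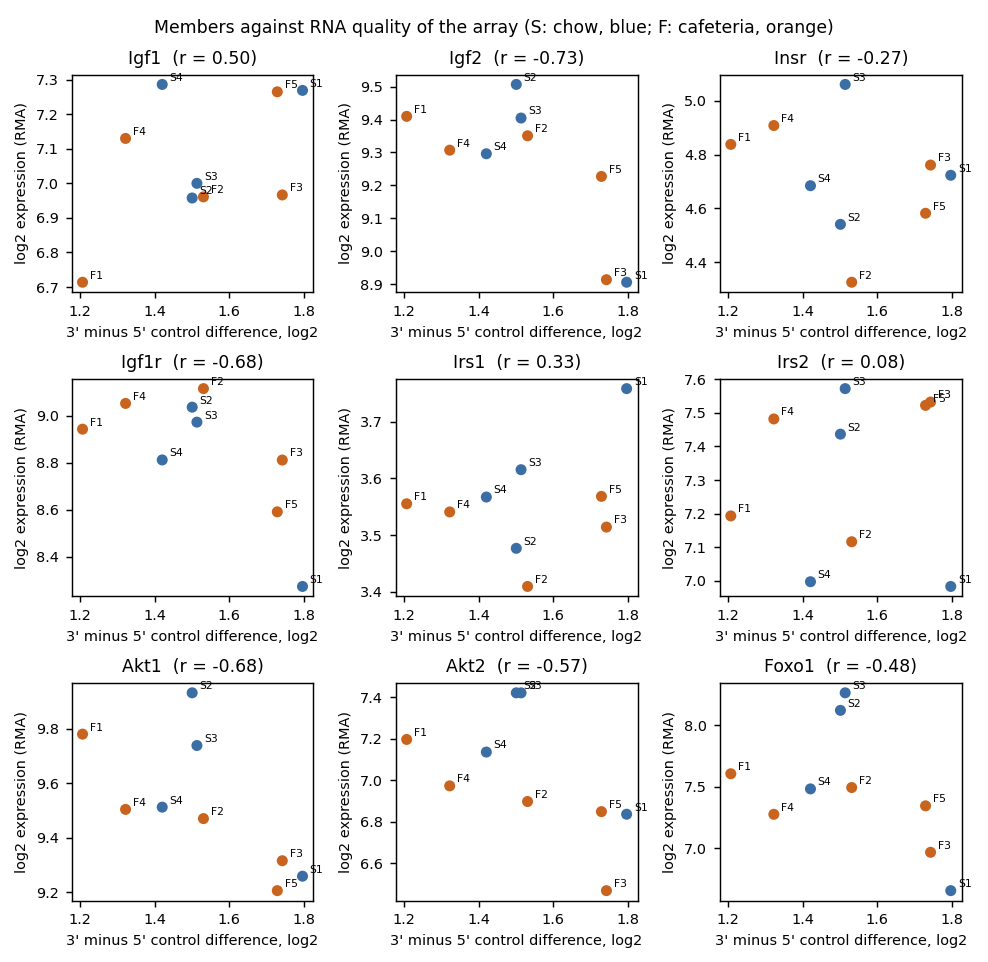
Log2 expression of each of the 9 genes (vertical axes) against the 3-prime minus 5-prime difference of the actin and Gapdh control probe sets on the same array (horizontal axes, log2), with Pearson's r over 9 arrays in each title. Each panel shows the brightest probe set of the gene. Chow replicate 1 and cafeteria replicates 3 and 5 lie to the right at 1.73 to 1.80. They are the lowest 3 arrays in the panels of Igf2, Igf1r, Akt1 and Akt2 (S marks chow and F cafeteria replicates). In the Igf1r panel cafeteria replicate 3 and chow replicate 4 both read 8.81.

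The genes most like the 3 most variable members were found by the root mean square difference of centred log2 values over the 9 arrays among the 14216 other genes. For Foxo1 they were Rora (0.10), a nuclear receptor, Insrr (0.13), the insulin receptor-related receptor, and Zfhx2 (0.14). For Akt2 they were Pacs1 (0.045), Sf1 (0.053) and Sumo2 (0.067), and for Igf1r Atp8b2 (0.071), Edem2 (0.081) and Emilin1 (0.10). These names describe the 9 arrays and carry no test.

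Foxo1 acts back on the pathway through binding sites in promoters, and in liver its best known target is Igfbp1, whose promoter carries an insulin response sequence. The RefSeq promoters of 8 members (9 windows of 300 bases around the start of transcription, build GRCr8) were searched on both strands for 2 motifs that do not overlap each other, the FOXO consensus TGTTTAC and the core CAAAACA of the insulin response sequence. The first was found in 3.78% and the second in 6.28% of 33469 windows of the same length. Of the members' windows 2 held a match, that of Insr TGTTTAC and that of Igf1 CAAAACA, and the Igfbp1 window held CAAAACA. The 3 windows are shown 5′ to 3′ on the strand of the gene with the match in capitals, because they are the places where these letters stand in a receptor, a ligand and a binding protein gene. They lie at chr12:6128754-6129053 (minus strand) for Insr, chr7:24172282-24172581 (plus strand) for Igf1 and chr14:86261027-86261326 (plus strand) for Igfbp1.
Insr: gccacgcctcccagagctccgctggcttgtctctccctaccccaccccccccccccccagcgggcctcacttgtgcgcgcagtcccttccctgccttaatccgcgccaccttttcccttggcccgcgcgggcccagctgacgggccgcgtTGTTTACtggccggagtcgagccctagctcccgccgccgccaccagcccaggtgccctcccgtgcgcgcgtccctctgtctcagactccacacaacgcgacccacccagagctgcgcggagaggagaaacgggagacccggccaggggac
Igf1: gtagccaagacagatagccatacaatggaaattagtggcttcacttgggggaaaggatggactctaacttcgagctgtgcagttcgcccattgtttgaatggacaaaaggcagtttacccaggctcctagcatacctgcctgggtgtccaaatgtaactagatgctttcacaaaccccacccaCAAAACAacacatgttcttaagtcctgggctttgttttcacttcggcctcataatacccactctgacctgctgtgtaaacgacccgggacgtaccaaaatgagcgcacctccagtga
Igfbp1: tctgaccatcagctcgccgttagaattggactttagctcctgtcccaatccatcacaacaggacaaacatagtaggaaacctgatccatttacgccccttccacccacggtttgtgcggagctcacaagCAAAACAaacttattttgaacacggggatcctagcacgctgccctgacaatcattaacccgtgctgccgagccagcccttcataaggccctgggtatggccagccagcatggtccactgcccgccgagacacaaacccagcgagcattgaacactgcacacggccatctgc
Counted from the start of transcription, the matches begin at -100 (Insr), -67 (Igf1) and -121 (Igfbp1). A match is a description of the letters, and binding was not measured here. The GC content of the members' windows ran from 48.3% (Igf1) to 78.0% (Igf1r), beside a median of 51.7% over all windows.

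The IGF binding proteins hold IGFs in the fluid around the cells and control how much reaches the receptor. All 7 of their genes were measured, and all 7 had lower means under the cafeteria diet, where 49.2% of all genes did. Of the 7, 0 passed the test. The Igfbp2 difference turned positive in 2 of 9 runs with 1 array left out. It also did so in 3 of 9 other alternatives, among them repeated quantile normalization (0.0032). The Igfbp6 difference turned positive in 1 of 9 runs with 1 array left out. Igfbp1, Igfbp2 and Igfbp6 were added to the named genes after their values were seen. Igfbp3, the main IGF carrier of blood, read 7.46, 7.29, 8.16 and 7.75 in chow and 7.44, 7.48, 7.00, 6.69 and 7.06 in cafeteria samples. Chow replicate 3 was the highest array, 3 of 5 cafeteria arrays lay below the lowest chow array, and the groups overlapped. The difference was -0.53 (SE 0.20, 95% interval -0.98 to -0.087; unadjusted p = 0.0235 and adjusted p = 0.844 by limma; exact permutation p = 0.0714). Its second probe set read 7.63, 6.94, 8.24 and 7.68 in chow and 7.46, 6.83, 6.15, 6.58 and 6.77 in cafeteria samples, a difference of -0.86 (SE 0.28; unadjusted p = 0.0106 by limma; exact permutation p = 0.0397). Without chow replicate 3, which also had the highest lymphoid and macrophage levels, the brighter probe set differed by -0.37, and with the macrophage level as a covariate by -0.56.

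Igfbp1 read 6.23, 5.89, 6.27 and 6.06 in chow and 6.26, 5.72, 5.62, 5.33 and 5.73 in cafeteria samples. In 4 of 5 cafeteria arrays it was below every chow array, and cafeteria replicate 1 stood with the chow arrays. The difference was -0.38 (SE 0.16, 95% interval -0.74 to -0.018; unadjusted p = 0.0412 and adjusted p = 0.844 by limma; exact permutation p = 0.0952). Igfbp4, an inhibitor of IGF action, read 7.28, 8.63, 8.34 and 7.90 in chow and 7.99, 7.86, 7.07, 7.57 and 7.16 in cafeteria samples, a difference of -0.50 (SE 0.28; adjusted p = 0.844 by limma). Its lowest 3 arrays were again the 3 of the poorest RNA, and without chow replicate 2 it differed by -0.31 and without chow replicate 1 by -0.76. Igfbp5 differed by -0.29 (SE 0.24) on its brightest probe set, and by -0.0031 with the macrophage level as a covariate. It differed by -0.057 without cafeteria replicate 1, whose 4.85 stood apart from 5.80 to 6.12 on the other cafeteria arrays. Its other probe sets, with means under the array medians, differed by 0.032, -0.074, -0.043 and -0.015. Igfbp7, known as a vascular matrix protein that binds IGFs weakly, differed by -0.068 (SE 0.10; -0.0056 without chow replicate 2), Igfbp6 by -0.040 (SE 0.11; 0.051 without chow replicate 1) and Igfbp2 by -0.017 (SE 0.073).

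**Figure D4:**
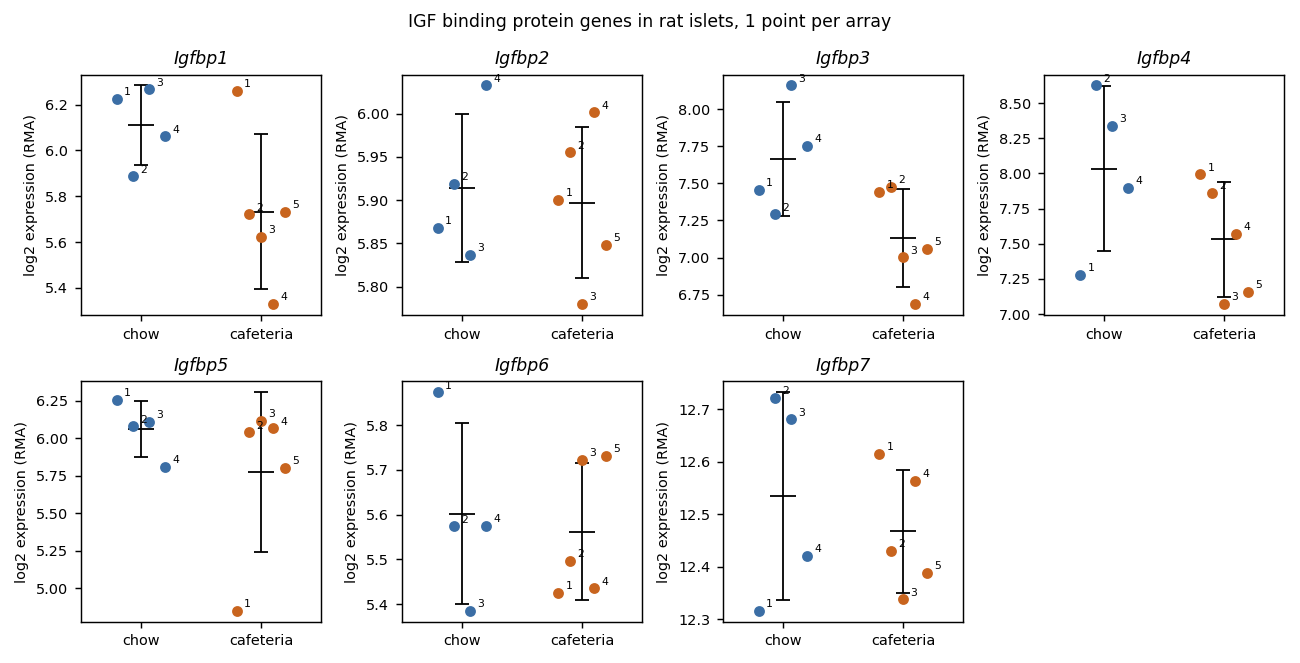
Log2 expression (vertical axes) of the 7 IGF binding protein genes on each array, with replicate numbers beside the points and bars for the mean and SD (n = 4 chow, n = 5 cafeteria). The groups overlap in every panel, and the cafeteria points of Igfbp1 and Igfbp3 lie mostly below the chow points.

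The rest of the pathway was read from a list of 86 other genes, of which 73 were measured. Of these 73, 0 passed the test over all genes by limma, 51 had lower and 22 higher means in cafeteria samples (48 and 25 after median centring, 48 and 24 after repeated quantile normalization), and the median difference was -0.061 beside 0.0025 over all genes. Over all 14217 genes 49.2% had lower means. At an unadjusted p under 0.05 there were 7 of the 73 (9.59%, beside 6.7% of all genes), 5 lower and 2 higher. That count was 3 without chow replicate 3 and 4 without cafeteria replicate 4, where the share of all probe sets fell too, from 5.76% to 3.98% and 4.15%. Groups did not overlap in 2 of the 73 (2.74%, beside 2.17% of all genes). With RNA quality as a covariate 15 of the 73 had an unadjusted p under 0.05, while the share of all probe sets rose from 5.76% to 11%, and 0 passed the adjusted test.

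Among the ligands and other receptors, Ins1 and Ins2, the insulin genes themselves, differed by 0.0076 (SE 0.057) and -0.0047 (SE 0.061) on probe sets near the top of the array's scale. Ghr, the growth hormone receptor, whose signal induces Igf1 in liver, read 8.95, 8.83, 8.92 and 8.54 in chow and 9.30, 9.12, 9.22, 9.25 and 9.33 in cafeteria samples. Every cafeteria array lay above every chow array. The difference was 0.43 (SE 0.093; adjusted p = 0.844 by limma, 0.324 to 0.995 over the alternatives; exact permutation p = 0.00794, the smallest it can give), and its second probe set, in which the groups overlapped, differed by 0.11 (SE 0.23). Insrr, an orphan relative of the insulin receptor, differed by -0.19 (SE 0.26; -0.48 without chow replicate 1, -0.017 without chow replicate 2, -0.046 without chow replicate 3), and Igf2r, which clears IGF2, by -0.091 (SE 0.071; -0.050 without cafeteria replicate 3).

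Of 14 measured adaptors and inhibitors at the receptor, 10 had lower and 4 higher means. Shc1, an adaptor to the Ras branch, differed by 0.25 (SE 0.11), Grb10, an inhibitor of both receptors, by 0.13 (SE 0.14; 0.060 without cafeteria replicate 4 and 0.23 without cafeteria replicate 1) and Ptpn1, the phosphatase that removes phosphate from the insulin receptor, by -0.055 (SE 0.083). Of 7 measured genes of lipid kinases and phosphatases, 5 had lower and 2 higher means. Pik3ca, the catalytic subunit of PI3K, differed by -0.00071 (SE 0.091) on its brightest probe set. Its 6 probe sets differed by -0.17 to 0.31, and 2 had the opposite sign to the brightest. The regulatory partner Pik3r1 differed by 0.20 (SE 0.25, with 0.026 without cafeteria replicate 1 and 0.37 without chow replicate 4). The phosphoinositide phosphatase Inpp5k differed by -0.24 (SE 0.083, unadjusted p = 0.0169 and adjusted p = 0.844 by limma).

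Below PI3K, 4 of 8 measured genes had higher means. Pdpk1, which activates AKT, differed by 0.053 (SE 0.11), Gsk3b, a kinase that AKT inhibits, by 0.092 (SE 0.15), the AKT inhibitor Trib3 by -0.14 (SE 0.11; -0.043 without chow replicate 1) and the AKT substrate Tbc1d4 by -0.14 (SE 0.11; -0.086 without cafeteria replicate 2). In the mTOR branch 9 of 13 genes had lower means. Mtor differed by 0.027 (SE 0.064; 0.0058 without chow replicate 3), its partner Rptor by 0.17 (SE 0.079) and the translation inhibitor Eif4ebp1 by -0.24 (SE 0.13; -0.14 without cafeteria replicate 3). In the Ras and MAP kinase branch 3 of 4 measured genes had lower means, including Map2k2 at -0.22 (SE 0.14; -0.10 without cafeteria replicate 3).

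Of 12 measured genes of the Foxo family and its targets, 9 had lower and 3 higher means. Pik3ip1, an inhibitor of PI3K, read 6.25, 6.19, 6.25 and 6.20 in chow and 6.14, 5.86, 5.78, 5.76 and 6.03 in cafeteria samples, so that every cafeteria array lay below every chow array. The difference was -0.31 (SE 0.088; unadjusted p = 0.0052 and adjusted p = 0.844 by limma; exact permutation p = 0.0159). Its other probe set, with a mean of 3.76, differed by 0.077 (SE 0.066). Txnip, a glucose-responsive gene that restrains thioredoxin, differed by -0.24 (SE 0.11; unadjusted p = 0.0462 by limma; -0.16 without cafeteria replicate 3), and Foxo3, the relative of Foxo1, by -0.091 (SE 0.072; -0.049 without chow replicate 4).

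**Figure D5:**
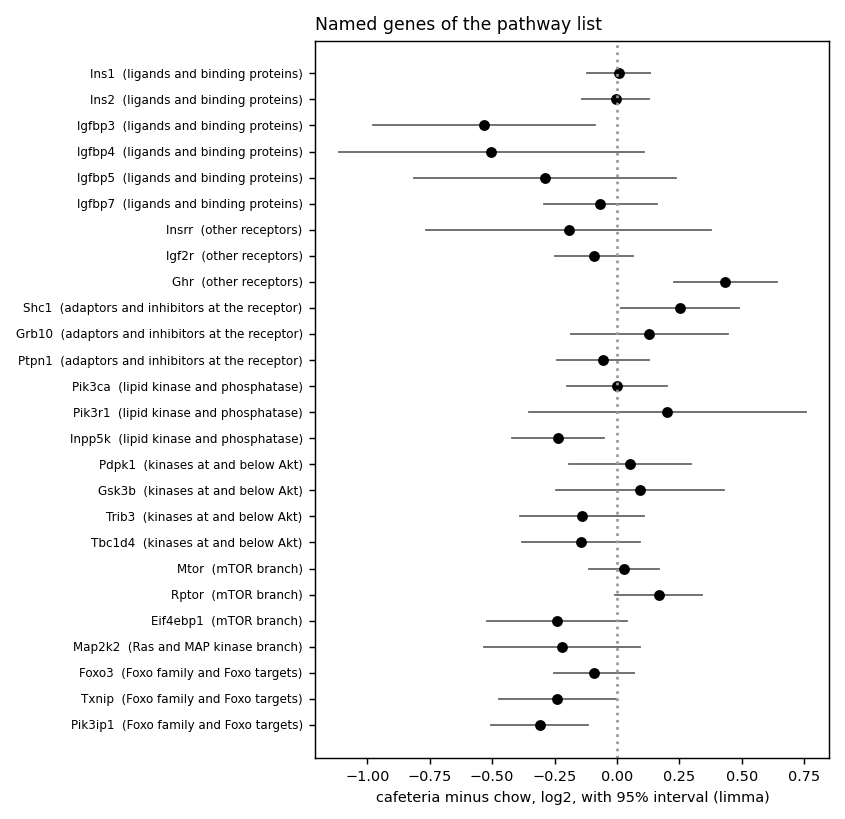
Difference between cafeteria and chow (horizontal axis, log2, with the 95% interval of limma) for the 26 measured genes of the pathway list that the naming rule took, with their role in the pathway. Ghr and Shc1 lie to the right of 0 and Igfbp3, Inpp5k, Txnip and Pik3ip1 to the left with intervals that do not reach 0, and the adjusted p of all 26 was 0.844 or more.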

How the data were processed

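The authors deposited a log2 expression value for each probe set and sample. Per the submitters' processing notes, affy 2.0.1, R 2.7.0 and RMA were used, in roles those notes do not assign. RMA equalises the distributions of the arrays, so a shift shared by most genes would be removed, and it gives no detection call. Of 31099 probe sets, 57 controls were dropped, and 20826 probe sets were named by a single gene in the platform annotation (436 by several, 9780 unlisted). All 9 members matched RefSeq by gene identifier. Groups were compared with limma 3.58.1 in R 4.3.3 (lmFit, eBayes, two-sided, cafeteria minus chow, no covariate, Benjamini-Hochberg over 31042 probe sets, threshold 0.05), with the moderated SE, after a check on simulated data. Exact permutation tests were two-sided over all 126 ways to choose the chow arrays, and over all orders of the 9 arrays for correlations (Python 3.11.15 with pandas 2.3.3, scipy 1.17.1 and numpy 2.4.6; figures by matplotlib 3.10.9). The members and the gene lists were chosen with earlier results of these data known. Always named were the 9 members, the pathway genes set by name that were measured, the gene of smallest p in each role, and 3 genes most like each of the 3 most variable members. Apart from sorting probe sets into brighter and dimmer ones, levels are not compared between probe sets. No 2 arrays were identical. Precision is limited by the number of arrays: the median SE over all genes was 0.098 log2. Alternatives were 2 scalings, a filter on dim probe sets, another variance model, array weights, 2 covariates, the mean over a gene's probe sets, a threshold of 0.10, each array left out and, added after the data were seen, the 3 arrays of poorest RNA left out.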

Additional observations from a re-analysis of the deposited data

Results flagged for a closer look

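Within a group, 1 array stood apart from the others by Dixon's ratio in 4 of 76 groups examined (38 named genes in both diets), where chance flags about 1 in 20. Igfbp5 read 4.85 on cafeteria replicate 1, against 5.80 to 6.12 on the other cafeteria arrays. Igf2r read 8.82 on cafeteria replicate 3, against 9.004 to 9.046 on the other cafeteria arrays. Inpp5k read 6.67 on cafeteria replicate 1, against 6.38 to 6.43. Gsk3b read 6.61 on chow replicate 1, against 7.27 to 7.36 on the other chow arrays. None of the 9 members had such an array.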

How the results depend on the processing

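Under every alternative run, 0 of 9 members and 0 of 73 pathway genes passed the threshold by limma, also at an adjusted p of 0.10, and the lowest adjusted p of a member was 0.346. At an unadjusted p under 0.05 there were 0 members as reported and 0 to 2 under the alternatives, where the share of all probe sets ran from 3.98% to 11%. The median difference of the members, -0.087, ran from -0.13 to -0.055 and that of the pathway list, -0.061, from -0.075 to -0.047. Akt1, Akt2, Foxo1, Irs1, Igfbp1, Igfbp3, Igfbp4, Ghr and Pik3ip1 kept their sign under every alternative run. So did Igfbp5, Igfbp7, Igf2r, Insrr, Grb10, Pik3r1, Trib3, Eif4ebp1, Foxo3, Txnip, Shc1, Inpp5k, Rptor and Map2k2. The dim Insr, Irs1, Grb10 and Pik3r1 dropped out of the filter on dim probe sets.

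Other signs turned, and the cause was not tested. With the macrophage level as a covariate Igf1 differed by 0.044, Insr by 0.013, Ptpn1 by 0.013, Pik3ca by 0.016, Mtor by -0.030 and Tbc1d4 by 0.013. With the mean over all probe sets of a gene Igf2 differed by 0.096, Insr by 0.0030, Igf1r by -0.023 and Pik3ca by 0.045. Without the 3 arrays of poorest RNA Irs2 differed by -0.072, Ins1 by -0.00079, Pik3ca by 0.0083, Pdpk1 by -0.064, Gsk3b by -0.020 and Igfbp2 by 0.023. After median centring Ins2 differed by 0.0044 and Pik3ca by 0.0083, and after repeated quantile normalization Ins2 by 0, Pik3ca by 0.0068 and Igfbp2 by 0.0032. With array weights Pdpk1 differed by -0.0085 and Igfbp2 by 0.012, and with RNA quality as a covariate Ins2 by 0.0021. With single arrays left out the differences ran from -0.16 to 0.045 for Igf2, -0.14 to 0.034 for Insr, -0.038 to 0.22 for Igf1r, -0.0035 to 0.016 for Ins1, -0.027 to 0.012 for Ins2, -0.13 to 0.0054 for Ptpn1, -0.060 to 0.074 for Pik3ca, -0.027 to 0.094 for Pdpk1, -0.083 to 0.17 for Gsk3b, -0.043 to 0.023 for Igfbp2 and -0.11 to 0.051 for Igfbp6. No paired analysis was possible because the labels give letters to the samples and no replicate number shared between the diets.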
